A study of Homo sapiens with 12 samples.

Results

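Expression of 10 sarcomere genes was examined in Rh30, a human alveolar rhabdomyosarcoma cell line that carries the PAX3-FKHR fusion gene. The genes were titin (TTN), nebulin (NEB), ACTN2, LDB3, DES, MYOM1, MYOM2, MYBPC1, MYBPC2 and MYBPH. They were taken by gene symbol alone, from every probe of the array that is not a control, which gave 13 probes of the 41000 gene probes and 10 of 30238 named genes. TTN, MYOM1 and LDB3 had 2 probes each. Where a gene had more than 1 probe, it is represented by the brighter one, and the other is described beside it.

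The cultures compared were of 3 kinds, all grown for 24 h after plating. WT was untransfected parental Rh30, grown without puromycin. CON was a clone of Rh30 that stably expressed a non-targeting shRNA, and KD1 was a clone that stably expressed an shRNA against PAX3-FKHR, both from the pSUPER.retro.puro vector and both kept in puromycin at 1 μg/mL. CON and KD1 are 1 clone each, so the shRNA and the clone cannot be told apart, and WT differs from both in vector, drug and clonal origin. Each array carried RNA of a pair of cultures, labeled with Cy3 and Cy5. There were 2 RNA extracts per culture and 12 arrays, with a dye-swap pair for each replicate of KD1 over CON, KD1 over WT and WT over CON. A log2 ratio above 0 means a higher signal in the culture named first (plots write vs for over). Both KD1 comparisons used the same KD1 extracts. A p-value here rests on the spread of the replicate log2 ratios, pooled over the 3 comparisons. What same-numbered extracts share cancels in a ratio, so the p-value does not measure the spread between extracts of a culture.

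The share of spots well above background was 71.1% to 73.6% in Cy3, while in Cy5 it was 64.4% to 67.8%. The array has no probe across the fusion junction. The brightest PAX3 probe gave −0.39 and −0.46 (log2) in KD1 over CON, and the brightest FOXO1 (FKHR) probe had −0.26 and −0.58. Neither passed the test (limma adjusted p = 0.33 and 0.43). Another PAX3 probe, nearly as bright, gave 0.16 and −0.33, which oppose each other, and a further one gave −0.25 and −0.32. The other FOXO1 probe gave −0.25 and −0.52, and none of these passed the test either. Of 8 myogenic markers, 7 were well above background in every channel of WT and of CON, and 6 in every channel of KD1, with MYOD1 among them in all cultures. The fibroblast markers LUM, PDGFRA and POSTN and the smooth muscle marker MYH11 were well above background in 0 of 8 channels of any culture. Other markers of these lists were detected. The fibroblast marker COL1A1 and the smooth muscle markers CNN1 and TAGLN were well above background in 8 of 8 channels of each culture. ACTA2 was so in 8 channels of WT, 7 of CON and 8 of KD1, COL1A2 in 5, 0 and 8, and DCN in 1, 1 and 0. All 4 WT over CON arrays were on 1 slide, whereas the KD1 arrays of replicate 1 and those of replicate 2 were on a slide each. Slide and replicate therefore cannot be told apart in the KD1 comparisons, and each replicate value given for them is also a value within 1 slide.

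The sarcomere is the contractile unit of striated muscle. Actin filaments are anchored at the Z-disc by α-actinin, and myosin filaments are crosslinked at the M-band by myomesin. Titin runs from the Z-disc to the M-band as a molecular spring, and nebulin lies along the actin filament. These genes are switched on as myoblasts leave the cell cycle and fuse, and desmin, already present in proliferating myoblasts, is a diagnostic stain for rhabdomyosarcoma.

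The probes on which the results mostly turned are shown by their first 30 bases, 5′ to 3′, to identify the sequence measured. Each probe has 60 bases, and its position in the files is on build NCBI36. The TTN probe A_23_P85269 lies on the minus strand at chr2:179100045-179100104 and was designed on the long N2-A transcript, from base 100376. The TTN probe A_23_P68219 lies at chr2:179318460-179318519 and was designed on the short novex-3 transcript. The ACTN2 probe is on the plus strand at chr1:234992566-234992625, the LDB3 probe on the plus strand at chr10:88485745-88485804 and the MYBPH probe on the minus strand at chr1:201403583-201403642.
TTN A_23_P85269: ctgacaaccctgatcatcatggacgtacag
TTN A_23_P68219: gatctgagtgctttcatattttccaaatta
ACTN2 A_23_P115021: tcccatcagaatgcaataaaagcggaagtc
LDB3 A_32_P98227: ttttttgcctgtgtgaattctactttttag
MYBPH A_23_P148737: aaggcgcagagattggagtgccctgcggag

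Most of these genes had their highest signal in the second KD1 extract. Of the 10 genes, 9 were higher there than in the other 5 extracts, and MYBPC1, which was not above background anywhere, was the exception. Over 15724 genes tested in every comparison, 18.7% were highest in that extract. In the first KD1 extract, 1 of the 10, TTN, exceeded all 4 WT and CON extracts, beside 21.7% of all genes. MYBPH followed another order, and was low in WT and high in both clones. In each gene below, signals are processed intensities per extract in arbitrary units, scaled between arrays, and are compared within a probe only. In such bulk RNA, fewer expressing cells and less RNA per cell cannot be told apart.

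**Figure D1:**
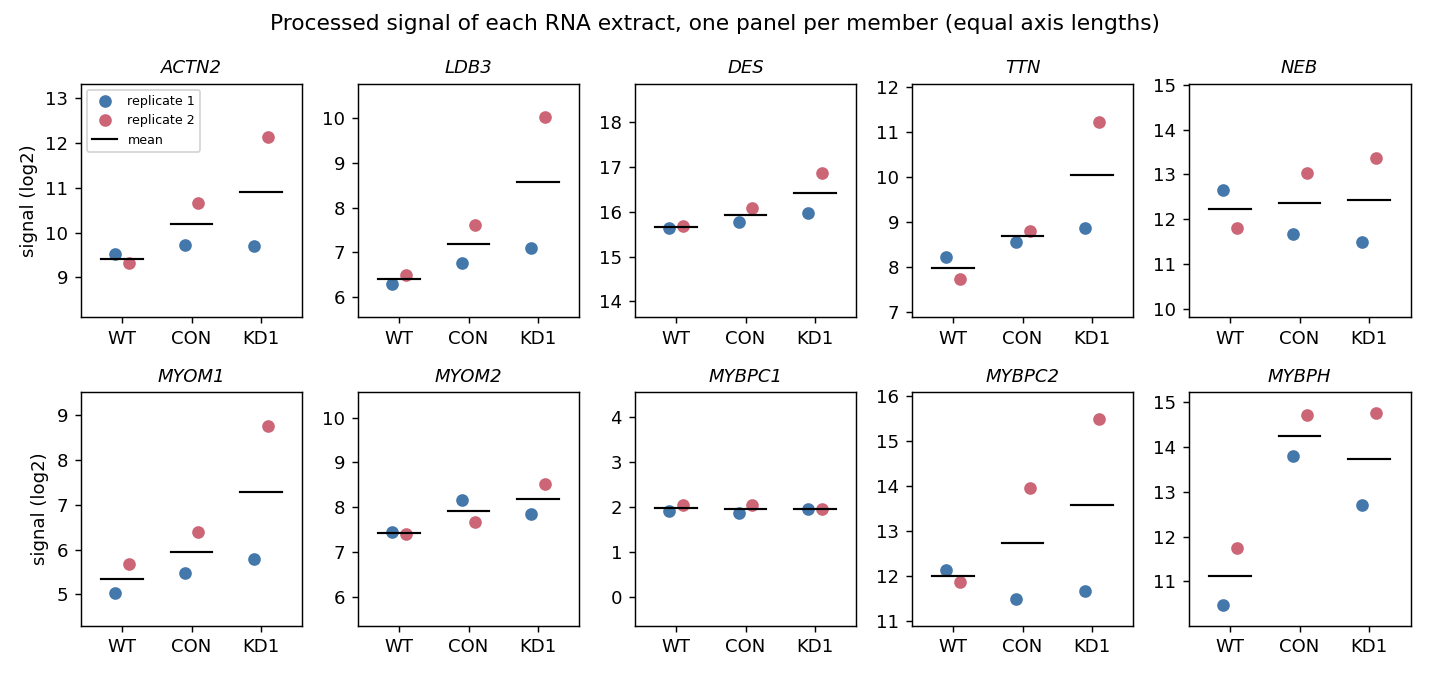
Processed signal of each gene (log2, arbitrary units) in the 2 RNA extracts of WT, CON and KD1, with the mean of the extracts as a line and every panel spanning the same number of log2 units. The second KD1 extract is the highest point in 9 of 10 panels, whereas MYBPC1 is flat near background and MYBPH is low in both WT extracts.

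ACTN2 encodes α-actinin-2, the main actin crosslinker of the muscle Z-disc. Its signal was 730 and 638 in WT, 841 and 1607 in CON, and 830 and 4457 in KD1. The first KD1 extract was at the level of the lower CON extract, and the second was above every other extract. The log2 ratio was −0.06 and 1.51 in the replicates of KD1 over CON, 0.18 and 2.80 in KD1 over WT, and −0.16 and −1.36 in WT over CON. The mean was 0.72 ± 1.11 (SD, n = 2) in KD1 over CON and 1.49 ± 1.85 in KD1 over WT, with limma adjusted p = 0.55 and 0.23.

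LDB3 encodes a PDZ and LIM domain protein of the Z-disc, also called ZASP or Cypher, which binds α-actinin. Its signal was 78.9 and 90.6 in WT, 109 and 197 in CON, and 138 and 1041 in KD1. Both WT extracts were below both CON extracts, and again the second KD1 extract stood apart. The replicate log2 ratios were 0.41 and 2.44 in KD1 over CON, 0.69 and 3.41 in KD1 over WT, and −0.58 and −1.17 in WT over CON. The mean of KD1 over CON, 1.43 ± 1.43 (SD, n = 2), did not pass the test (limma adjusted p = 0.24). The other LDB3 probe, A_24_P201367, was well above background in 3 of 8 channels of WT and 6 of 8 of CON and of KD1, and had the same sign of the mean in the 3 comparisons.

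DES encodes desmin, the intermediate filament protein that links Z-discs to one another. It was well above background in every channel, with a signal of 51093 and 52787 in WT, 55446 and 69304 in CON, and 63742 and 119466 in KD1. No WT extract reached the level of a CON extract, but the steps were small. The replicate log2 ratios were 0.19 and 0.81 in KD1 over CON, 0.27 and 1.22 in KD1 over WT, and −0.11 and −0.40 in WT over CON. The mean difference was 0.50 ± 0.44 (SD, n = 2) in KD1 over CON, with limma adjusted p = 0.38.

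TTN was measured by a probe designed on the N2-A transcript and a probe designed on the novex-3 transcript. Whether other TTN transcripts also hold these sequences was not tested. The first of these probes, the brighter, gave 297 and 213 in WT, 375 and 447 in CON, and 469 and 2396 in KD1. By this probe TTN was the 1 gene of the 10 in which the 3 cultures did not overlap, in the order WT, CON, KD1. The first KD1 extract was nonetheless close to CON. Over all genes, 14.8% had cultures that did not overlap, in any order. The replicate log2 ratios of this probe were 0.33 and 2.28 in KD1 over CON, 0.73 and 3.38 in KD1 over WT, and −0.28 and −1.19 in WT over CON. The means of 1.31 ± 1.37, 2.06 ± 1.87 and −0.74 ± 0.64 (SD, n = 2) had limma adjusted p = 0.28, 0.14 and 0.56.

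The novex-3 probe of TTN moved the same way. Its signal was 82.9 and 58.6 in WT, 97.4 and 113 in CON, and 165 and 874 in KD1. The log2 ratio was 0.68 and 2.81 in the replicates of KD1 over CON and 1.04 and 3.73 in those of KD1 over WT. Both TTN probes therefore gave the same culture order, without passing the test (limma adjusted p = 0.18 and 0.11 for the novex-3 probe).

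NEB encodes nebulin, which spans the thin filament. Its signal was 6432 and 3575 in WT, 3280 and 8368 in CON, and 2880 and 10480 in KD1. The 3 cultures overlapped, and the extracts of a culture differed more than the cultures did. The replicates opposed each other in every comparison, at −0.19 and 0.38 in KD1 over CON, −1.13 and 1.49 in KD1 over WT, and 0.94 and −1.24 in WT over CON (log2). No direction can be given for NEB.

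MYOM1 encodes myomesin, the principal crosslinker of the M-band. Its signal was 32.9 and 50.8 in WT, 44.3 and 84.4 in CON, and 55.3 and 435 in KD1. It was dim, exceeding the negative controls on 3 of 4 arrays of each KD1 comparison, and so it was tested in WT over CON alone. The log2 ratio was 0.51 and 2.33 in the replicates of KD1 over CON and 0.81 and 2.86 in KD1 over WT. In WT over CON it was −0.24 and −1.05 (limma adjusted p = 0.55). The other MYOM1 probe, A_24_P938101, was not above background in any channel.

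MYOM2, the M-band protein of fast fibres, had a signal of 176 and 170 in WT, 286 and 205 in CON, and 231 and 367 in KD1. WT was lowest in both extracts, and CON and KD1 overlapped. The log2 ratio was −0.31 and 0.77 in KD1 over CON, 0.35 and 1.13 in KD1 over WT, and −0.80 and −0.36 in WT over CON. The mean WT over CON difference of −0.58 ± 0.31 (SD, n = 2) had limma adjusted p = 0.37.

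MYBPC1, MYBPC2 and MYBPH belong to the myosin-binding protein C and H family, whose members decorate the thick filament. MYBPC1, the slow isoform, was above background in 0 of 8 channels of each culture, and nothing can be said of its direction. MYBPC2, the fast isoform, had a signal of 4472 and 3699 in WT, 2856 and 15937 in CON, and 3215 and 46049 in KD1. Its replicates opposed each other in KD1 over WT, at −0.54 and 3.43, and in WT over CON, at 0.68 and −2.31 (log2). In KD1 over CON they were 0.13 and 1.54, with a mean of 0.83 ± 0.99 (SD, n = 2) and limma adjusted p = 0.67.

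MYBPH was the 1 gene of the set that passed the test. Its signal was 1426 and 3436 in WT, 14128 and 26708 in CON, and 6666 and 27581 in KD1. Both WT extracts were below all 4 extracts of the clones, and CON and KD1 overlapped. In WT over CON the log2 ratio was −3.22 and −2.99 in the replicates, a mean of −3.10 ± 0.17 (SD, n = 2), and MYBPH fell (limma adjusted p = 0.0056). In KD1 over WT the log2 ratio was 2.31 and 3.05, a mean of 2.68 ± 0.53 or 6.41-fold, and MYBPH rose (limma adjusted p = 0.011). In KD1 over CON the replicates were −1.15 and 0.11, which oppose each other (limma adjusted p = 0.42).

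The MYBPH calls held in 6 of 13 alternatives tested in KD1 over WT and in 5 of 13 in WT over CON. From separate channels, with no replicate block, limma adjusted p was 0.20 in KD1 over WT and 0.14 in WT over CON, and from paired ratios with normexp and loess it was 0.11 in both. Over the alternatives tested, limma adjusted p ranged from 0.011 to 0.60 in KD1 over WT and from 0.0056 to 0.47 in WT over CON. The log2 difference kept its direction in all of them, between 1.59 and 3.64 in KD1 over WT and between −3.77 and −2.50 in WT over CON. The deposited series ratios, among the alternatives in which both calls held, nearly equal the main ratios and could hardly differ from them.

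**Figure D2:**
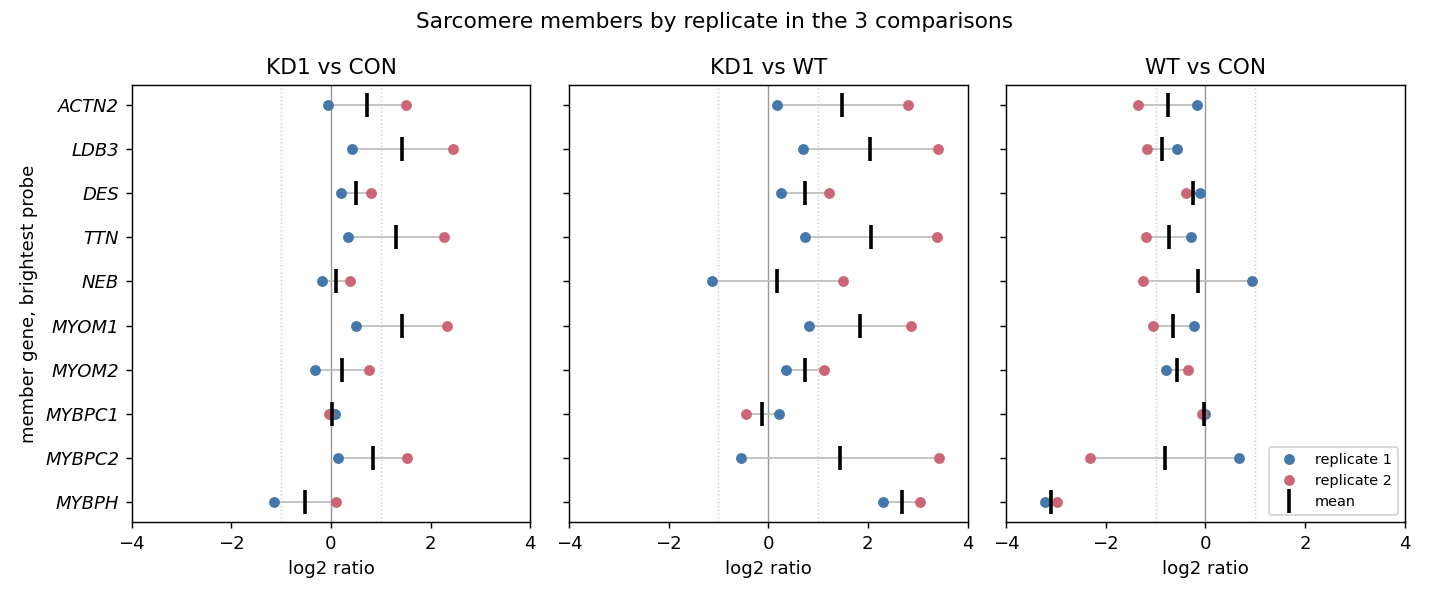
Log2 ratio of each gene by its brighter probe in the 3 comparisons, with a point for each replicate (the mean of a dye-swap pair) and a bar for their mean; dotted lines mark 2-fold. Replicate 2 lies to the right of replicate 1 in KD1 over CON and KD1 over WT for every gene except MYBPC1, and the MYBPH replicates lie close together in WT over CON, at −3.22 and −2.99.

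Read as a group, the genes leaned toward higher in KD1 and lower in WT. Of the 9 genes detected, leaving out MYBPC1, 8 had a mean above 0 in KD1 over CON, the exception being MYBPH. In KD1 over WT all 9 were above 0, and in WT over CON all 9 were below 0. Over all genes tested, 52.1% were below 0 in KD1 over CON, 49.5% in KD1 over WT and 53.5% in WT over CON. The replicates opposed each other for 5, 3 and 3 of all 10 genes in these comparisons, with NEB and MYBPC1 among them each time. MYBPC2 was among them in KD1 over WT and in WT over CON. The median over the genes tested was 0.61 in KD1 over CON, 1.47 in KD1 over WT and −0.74 in WT over CON, beside −0.02, 0.00 and −0.03 over all genes tested (log2). Both KD1 comparisons share the KD1 extracts and each shares an extract pair with WT over CON, so the 3 medians are not independent. Leaving out 1 extract or replicate moved them over −0.29 to 1.47, 0.31 to 2.98 and −1.19 to −0.24. The WT over CON median was −0.30 without the second CON extract and −0.37 with normexp and loess.

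Few of these differences passed the test. At an adjusted p below 0.05, 0 of 8 genes tested were called in KD1 over CON, where 1.9% of 15768 genes were called by limma. At an unadjusted p below 0.05 in the same limma fit there were 2 of 8, TTN and LDB3, beside 17.3% of all genes. In KD1 over WT 1 of 8 was called, MYBPH, against 1.16% of 17857 genes. Unadjusted, 6 of 8 were below 0.05 there, namely TTN, ACTN2, MYOM2, MYBPH, DES and LDB3, beside 17.3% of all genes. In WT over CON 1 of 9 was called, again MYBPH, against 1.48% of 19142, and it was also the 1 gene below 0.05 unadjusted, beside 16.6% of all genes. By a mean of at least 2-fold with 1 direction on all 4 arrays, TTN and LDB3 were selected in KD1 over CON, 2 of 8 beside 4.28% of all genes. The same rule selected TTN, ACTN2, MYBPH and LDB3 in KD1 over WT, 4 of 8 beside 4.68%, and MYBPH in WT over CON, 1 of 9 beside 4.72%.

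The KD1 values differed widely between the extracts of that clone. In KD1, 7 of 10 genes were over 2-fold higher in replicate 2 than in replicate 1, beside 3.67% of 15724 genes, and the median gap was 2.20 (log2). MYBPC2 had the widest gap, 14.3-fold, followed by MYOM1 at 7.86-fold, LDB3 at 7.56-fold, ACTN2 at 5.37-fold and TTN at 5.11-fold. In CON, 2 of 10 genes, NEB and MYBPC2, passed 2-fold, beside 1.61% of genes, and the median gap was 0.89. In WT 1 of 10, MYBPH, passed it, beside 0.871% of genes, and the median gap was −0.00.

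**Figure D3:**
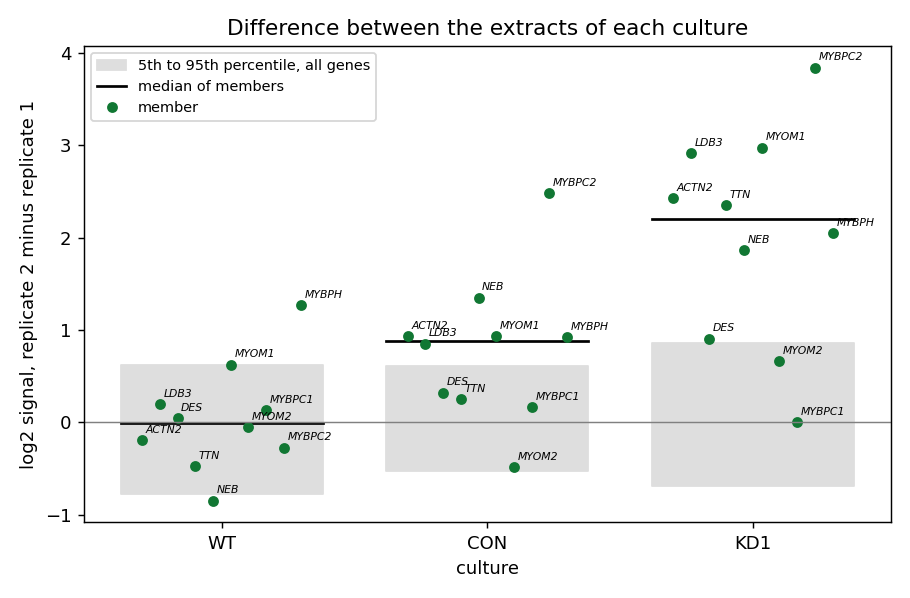
Log2 signal of replicate 2 minus replicate 1 within each culture for the 10 genes (points), with their median (line) and the 5th to 95th percentile of all genes tested (grey). The points of KD1 sit around 2.20 with 7 above 1, those of CON around 0.89, and those of WT around 0.

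Leaving out the second KD1 extract, in a fit in which the lone KD1 extract was assumed to vary like the others, turned the median in KD1 over CON to −0.29 and lowered that in KD1 over WT to 0.36. No gene of the set was called by limma in that fit. TTN was then 0.20 in KD1 over CON, LDB3 −0.088, ACTN2 −0.49 and MYBPC2 −1.07 (log2). Leaving out the first KD1 extract instead raised the medians to 1.47 and 2.98. In that fit 2 of 8 were called by limma in KD1 over CON, TTN at 2.55 and LDB3 at 2.83, beside 1.22% of all genes. In KD1 over WT 4 of 8 were called, TTN, ACTN2, MYBPH and LDB3, beside 1.53%.

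Markers of other cell types were set beside this gap. The summed signal of the 8 myogenic markers was 74408 and 87366 in the KD1 extracts, and 77773 to 99924 in WT and CON. Single markers moved within that sum. MYOG, the myogenic factor of differentiating myoblasts, had a signal of 813 and 1795 in WT, 3349 and 3974 in CON, and 1309 and 2424 in KD1. It fell in WT over CON, at −1.96 and −1.49 (limma adjusted p = 0.019), and was −1.35 and −0.92 in KD1 over CON (limma adjusted p = 0.051). MYF5, a factor of proliferating myoblasts, had a signal of 8861 and 8269 in WT, 2522 and 3675 in CON, and 3384 and 1535 in KD1. Its log2 ratio was −1.42 and −2.42 in KD1 over WT (limma adjusted p = 0.069). It was 1.84 and 1.33 in WT over CON (limma adjusted p = 0.096), and 0.45 and −1.30 in KD1 over CON. The summed signal of the 6 fibroblast markers was 254 and 517 in KD1, where the second extract was the highest of the 6, and 185 to 374 in WT and CON. Most of the fibroblast sum was COL1A1, at 209 and 480 in KD1 and 162 to 347 in WT and CON, whereas COL1A2 was 28.2 and 17.7 in KD1. LUM, PDGFRA and POSTN stayed at background. The 4 smooth muscle markers summed to 2550 and 1875 in KD1 and to 959 to 2021 in the other extracts, with MYH11 at background. Most of the KD1 sum was TAGLN, at 2382 and 1532, whereas CNN1 was 132 and 245 and ACTA2 was 30.6 and 94.4. The 4 cardiac markers summed to 3538 and 3259 in KD1 and to 2813 to 6188 in WT and CON. The part of these cell types in the gap was not tested.

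The rest of the sarcomere was described from a list of 50 further genes of the Z-disc, the M-band, titin partners, thin filament length control, the thick filament and intermediate filaments. In KD1 over CON 1 of 36 genes tested rose and 0 fell, beside 1.9% of all genes called in either direction. In KD1 over WT 6 of 40 rose and 0 fell, beside 1.16%, and in WT over CON 0 of 45 rose and 3 fell, beside 1.48% (limma). The medians were 0.26, 0.44 and −0.49 (log2). Without the second KD1 extract, 0 were called in either KD1 comparison, and without the first, 5 and 13 were called.

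CSRP3, the muscle LIM protein of the Z-disc, was the 1 gene called in KD1 over CON. Its signal was 138 and 270 in WT, 500 and 877 in CON, and 1307 and 7608 in KD1, so that the 3 cultures did not overlap. The replicate log2 ratios were 1.31 and 3.07 in KD1 over CON (limma adjusted p = 0.044) and 3.12 and 4.55 in KD1 over WT (limma adjusted p = 0.0084). It passed no test in WT over CON, at −1.96 and −1.86 (limma adjusted p = 0.074). The KD1 over CON call held in 3 of 13 alternatives tested, with limma adjusted p from 0.025 to 0.59, and was lost with no replicate block, normexp and loess, median centring, no filter and the joint estimate. The KD1 over WT call held in 6 of 13.

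MYOZ2 (a calcineurin-binding Z-disc protein), SMYD1 (a methyltransferase that acts on myosin assembly) and SMPX (a small stretch-responsive muscle protein) resembled MYBPH in their order. All 3 rose in KD1 over WT and fell in WT over CON. The KD1 over WT calls held in 3 of 13 alternatives for MYOZ2 and for SMPX and 2 of 12 for SMYD1, and the WT over CON calls in 4, 7 and 5 of them. All were lost with no replicate block and with normexp and loess, and every log2 difference kept its direction. The alternatives in which calls held include the deposited series ratios, which nearly equal the main ratios. For WT over CON they also include leaving out a KD1 extract, which changes the spread but not the WT and CON levels. SMPX had a signal of 241 and 428 in WT, 7595 and 15253 in CON, and 1288 and 9557 in KD1, and its WT over CON log2 ratio was −4.94 and −5.17 (limma adjusted p = 0.0045). SMYD1 was −4.44 and −4.88 in WT over CON, and was well above background in 5 of 8 WT channels. MYOZ2 was −2.71 and −3.49. In KD1 over CON the replicates of MYOZ2 and SMYD1 opposed each other, and SMPX was −2.56 and −0.67 (limma adjusted p = 0.15).

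MYPN (myopalladin) and SYNPO2 (myopodin), both Z-disc proteins, rose in KD1 over WT at 1.83 and 2.12 and at 1.41 and 2.61, calls that held in 5 and 3 of 13 alternatives. Among genes that were not called, TRIM54, a microtubule-binding ring finger protein of the sarcomere, was 0.81 and 2.54 in KD1 over CON and the myosin chaperone UNC45B was 0.42 and 2.91. At the low end LMOD3, which nucleates thin filaments, was −1.39 and 0.25 in KD1 over CON. None of the 5 intermediate filament genes passed the test in any comparison (limma), and 0 of their KD1 gaps passed 2-fold. DES, which is of the same class, passed no test either, and its KD1 gap was 1.87-fold.

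**Figure D4:**
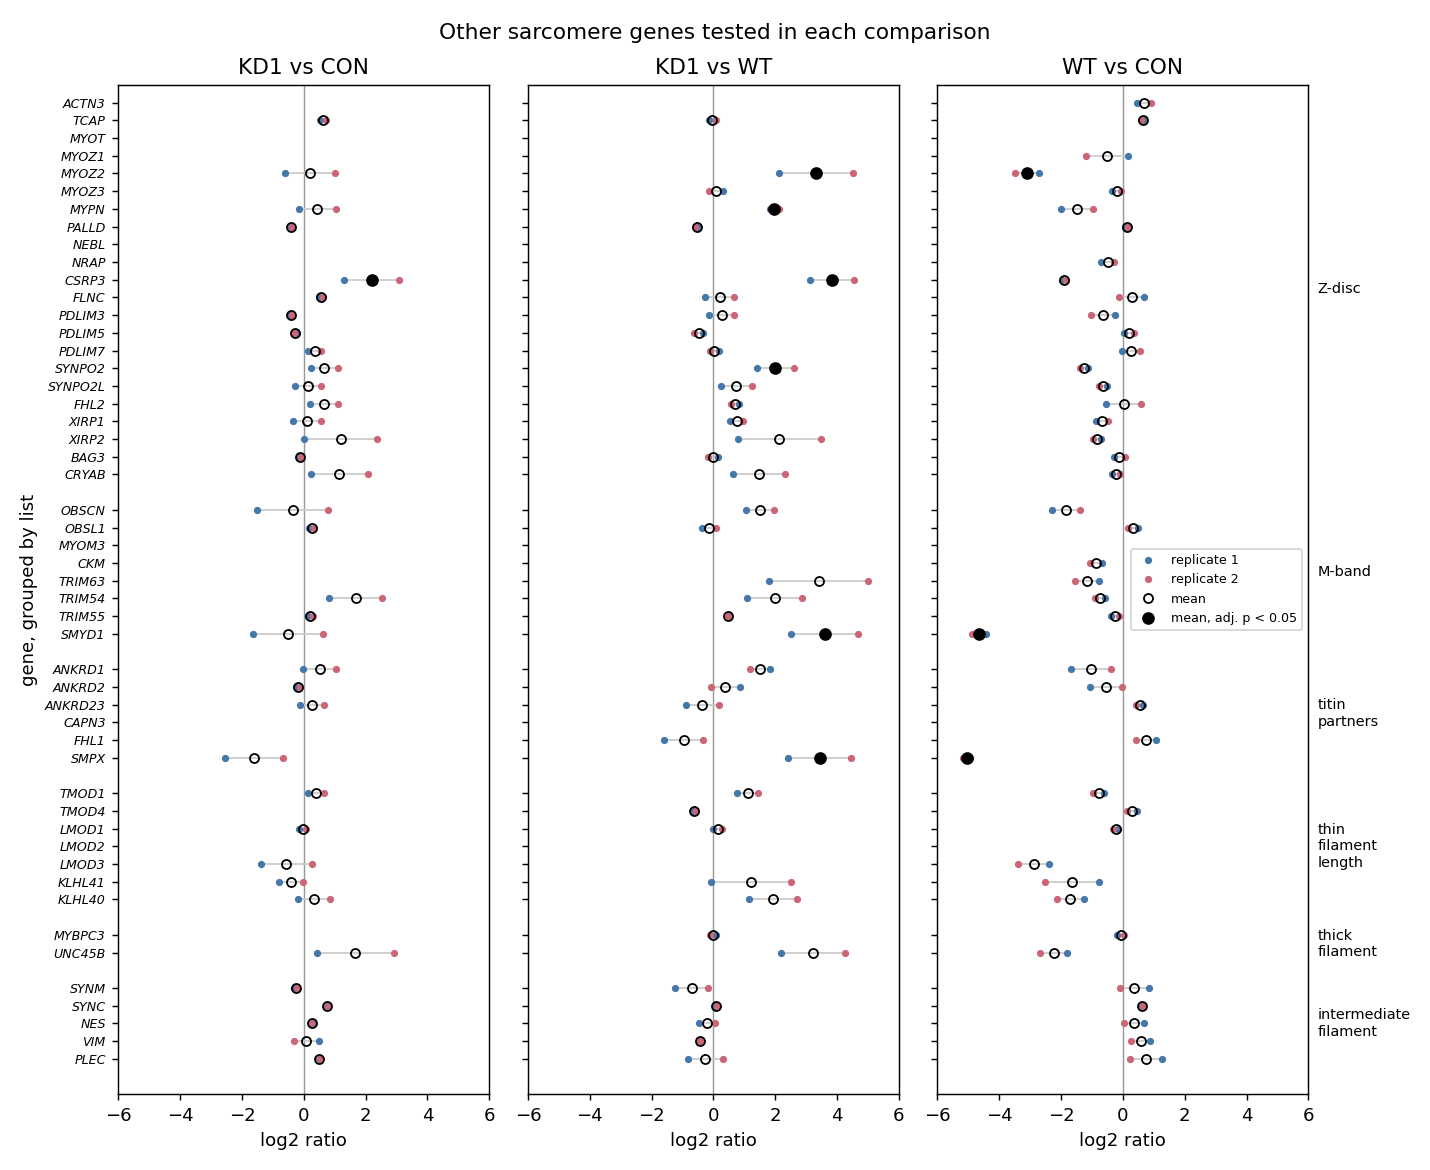
Log2 ratios of the other sarcomere genes tested in each comparison, grouped by list, with a coloured point for each replicate and a circle for the mean, filled where the limma adjusted p was below 0.05. Filled circles are CSRP3 in KD1 over CON, 6 genes above 0 in KD1 over WT, and MYOZ2, SMYD1 and SMPX below 0 in WT over CON.

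For the 8 genes tested in all comparisons (not MYOM1 or MYBPC1), the genes closest in pattern were ranked by the root mean square difference of the 6 replicate log2 ratios, among 15723 other genes so tested. The 6 values share extracts and arrays, and the ranking is a description. TTN and LDB3 were each other's nearest gene, at 0.14, and XIRP2, an actin-binding muscle protein, was the second for both, at 0.25 and 0.20. The third for both was IL20RB, not a sarcomere gene, at 0.25 and 0.23. The nearest to DES were DUSP13 at 0.07 and CHRND, the δ subunit of the muscle acetylcholine receptor, at 0.11. MYBPH had no near neighbour, the closest being DNAJA4 at 0.54 and the fast myosin light chain MYL1 at 0.56. The nearest to ACTN2 was IFIH1 at 0.20 and the nearest to MYBPC2 was GDF15 at 0.29, neither of them a sarcomere gene. For NEB it was ANGPTL2 at 0.07 and for MYOM2 AK1 at 0.08, also outside the sarcomere lists.

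Promoters were compared for the genes of the set that had a reference sequence. RefSeq sequences of the 250 bases before the transcript start, on GRCh38.p14, were matched for 7 of the 10 genes, with 2 starts for LDB3. The motifs searched on both strands were the E-box CANNTG, which myogenic factors and other basic helix-loop-helix proteins bind, its form CAGCTG, the homeodomain core ATTA, and the MEF2 and CArG boxes. Overlapping matches were all counted. E-boxes are marked in capitals in the sequences below, as is ATTA or its complement. MYBPH is shown because it passed the test. TTN, LDB3 and ACTN2 are shown as examples of genes with high replicate 2 ratios in both KD1 comparisons. MYOM1 had such ratios too and is not shown. The windows are chr1:203175827-203176076 on the minus strand for MYBPH, chr2:178807424-178807673 on the minus strand for TTN, chr10:86668261-86668510 on the plus strand for LDB3 and chr1:236686249-236686498 on the plus strand for ACTN2.
MYBPH: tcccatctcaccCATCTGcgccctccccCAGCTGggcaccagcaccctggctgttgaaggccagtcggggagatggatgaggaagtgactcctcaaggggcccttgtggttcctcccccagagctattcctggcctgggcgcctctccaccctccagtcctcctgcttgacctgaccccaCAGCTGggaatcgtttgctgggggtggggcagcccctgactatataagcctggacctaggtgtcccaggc
TTN: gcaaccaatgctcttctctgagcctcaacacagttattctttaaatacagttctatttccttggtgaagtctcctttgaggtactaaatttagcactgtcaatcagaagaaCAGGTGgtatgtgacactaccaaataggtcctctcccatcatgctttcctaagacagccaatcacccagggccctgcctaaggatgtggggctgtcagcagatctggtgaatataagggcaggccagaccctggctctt
LDB3: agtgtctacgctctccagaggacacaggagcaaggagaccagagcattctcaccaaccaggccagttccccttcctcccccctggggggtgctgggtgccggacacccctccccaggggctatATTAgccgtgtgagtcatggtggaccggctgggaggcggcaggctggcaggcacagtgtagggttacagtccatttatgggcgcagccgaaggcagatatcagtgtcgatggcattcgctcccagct
ACTN2: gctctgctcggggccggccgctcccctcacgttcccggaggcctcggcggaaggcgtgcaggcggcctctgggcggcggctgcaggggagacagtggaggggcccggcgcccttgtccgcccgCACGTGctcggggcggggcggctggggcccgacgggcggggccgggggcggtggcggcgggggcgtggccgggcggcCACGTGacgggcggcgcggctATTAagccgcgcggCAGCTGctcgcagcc

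Of the 3 E-boxes in the MYBPH window, 2 had the form CAGCTG. The ACTN2 window also held 3, with 1 of that form, and that of TTN held 1. LDB3 had no E-box, but 1 ATTA and 1 CArG box. TTN was the 1 gene of the 7 with a MEF2 box. An E-box was present for 6 of 7 genes, against 61.8% of 35116 promoters, and CAGCTG for 3 of 7, against 14% of promoters. ATTA occurred for 4 of 7 (47.4% of promoters), a MEF2 box for 1 (2.8%) and a CArG box for 2 (1.16%). No motif of this list was common to TTN and LDB3 in the window. A match of letters does not show that a factor binds there.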

How the data were processed

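Gene expression was measured on 12 two-color Agilent whole human genome arrays. The authors extracted spots with Agilent Feature Extraction 10.5.1.1 and deposited linear intensity values per channel, background-subtracted and lowess-normalized within the array, and a log10 ratio of red over green. The authors also deposited log2 ratios per probe for the whole series, which was used as an alternative. The members and the gene lists were chosen with earlier results of these data known.

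From the processed intensities, log2 ratios of the first over the second culture were taken and averaged over spots of a probe and over each dye-swap pair. Probes entered a test if, on each array of that comparison, Cy3 or Cy5 signal after background subtraction was higher than the 99th percentile of 153 negative controls. Tests used limma 3.58.1 in R 4.3.3 (lmFit, eBayes) on 6 values (replicate by comparison). Residual degrees of freedom were 2, as only 3 extracts stand behind the 3 values of a replicate, with Benjamini-Hochberg adjustment over all probes tested at 0.05. Each gene was read from its brightest probe. Signals per extract came from separate channels after quantile normalization of the average intensity across arrays, each over 4 arrays. Named genes were the members, and other listed sarcomere genes past the threshold or among the 3 lowest and 3 highest in KD1 over CON. Some of the 3 genes nearest to a member in pattern were also named.

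Array pairs were made of extracts with the same replicate number, so the replicate was the block. Deviations of same-numbered extracts correlated by 0.541 between KD1 and CON, −0.02 between WT and CON and −0.07 between KD1 and WT across probes. The fit was tested on simulated data: among 21951 probes as in KD1 over CON, 200 were given a log2 change of 2, and 93.7% of these were recovered beside a mean of 10.7 false calls in 20 runs. The simulated extracts were independent, with no correlation of same-numbered extracts and no extract that stood apart as the second of KD1 did here. The recovery rate therefore holds for that setting and not for the genes of this set. The number of arrays limits the precision. Alternatives were normexp (offset 50) with loess, median centring, the deposited series ratios, no replicate block, no filter, a filter on spots well above background in both channels, a joint estimate over the comparisons, the mean over probes, each replicate left out and, chosen after seeing the data, each extract left out. The package data.table (version 1.17.8) in R, and Python 3.11.15 with matplotlib 3.10.9, pandas 2.3.3 and numpy 2.4.6, served for tables and plots.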

Additional observations from a re-analysis of the deposited data

How the results depend on the processing

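With 2 extracts per culture, results that rest on 1 extract cannot be separated from the culture, and dim probes (MYOM1, MYBPC1) limit what can be tested. Probes called in KD1 over CON, KD1 over WT and WT over CON numbered 392, 259 and 365. They were 26, 1 and 2 with normexp and loess, 252, 140 and 182 with median centring, 160, 107 and 131 with the joint estimate, and 252 and 199 without the filter in KD1 over CON and WT over CON. In the fit with no replicate block, by separate channels, they were 201, 126 and 110, no gene of the set was called where the paired fit called MYBPH, and 0 other sarcomere genes were called in any comparison. Normexp and loess also left 0 genes of the set in KD1 over WT and WT over CON and 0 other sarcomere genes in each comparison. Other sarcomere genes called were 0 in KD1 over CON with median centring, without the filter and with the joint estimate, and 1 in KD1 over WT with each of these 3. With the joint estimate 1 was called in WT over CON. The cause was not tested.

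With replicates or extracts left out in turn, probes called ranged from 76 to 239 in KD1 over CON, 34 to 349 in KD1 over WT and 6 to 183 in WT over CON. Genes of the set called ranged from 0 to 2, 0 to 4 and 0 to 0, and other sarcomere genes called from 0 to 5, 0 to 13 and 0 to 4. The median of the set ranged from −0.29 to 1.47 in KD1 over CON. Log2 ratios that changed sign ranged in KD1 over CON from −0.86 to 1.00 for NEB, −0.49 to 1.94 for ACTN2, −0.31 to 0.77 for MYOM2, −1.07 to 2.77 for MYBPC2, −1.54 to 0.51 for MYBPH and −0.088 to 2.83 for LDB3. In KD1 over WT they ranged from −1.13 to 1.49 for NEB and −0.54 to 3.50 for MYBPC2, and in WT over CON from −1.24 to 0.94 for NEB and −2.31 to 0.68 for MYBPC2. In these fits a lone extract was assumed to vary like the others. Single genes of the set kept their direction in all other alternatives run.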
